A study of Homo sapiens with 6 samples.

Results

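The response of wild type RPE1 cells to hydrogen peroxide (H2O2) was described across all 60448 genes of the deposited table, as the ratio of the value in H2O2-treated cells to the value in untreated cells. RPE1 is an immortalised human cell line derived from the retinal pigment epithelium. New RNA was measured by 4sU-seq: 4-thiouridine given to living cells is built into RNA as it is transcribed, and the RNA that carries it is purified for sequencing. The series holds 6 libraries, of which 4 are used here. The 2 untreated libraries came from wild type cells with no doxycycline and no H2O2, and the 2 treated libraries came from wild type cells with no doxycycline after H2O2. The other 2 libraries, of treated cells in which NuMA was knocked down, were not used here. The dose of H2O2, the time after it and the labelling time are not given in the sources used here. Nothing in the labels says that the 2 libraries of a group came from separate cultures, so every error below covers only the spread between libraries, which may be technical.

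H2O2 is a mild oxidant that crosses membranes and oxidises cysteines of enzymes, among them protein phosphatases, whose loss of activity lets growth factor and stress kinases signal. Cells remove it with catalase, peroxiredoxins and glutathione peroxidases. In many cell types a peroxide dose or a change of medium induces immediate early genes within minutes, because their RNA needs no new protein to be made. The retinal pigment epithelium lives beside the photoreceptors in strong light and high oxygen, and is for that reason a common model of oxidative stress.

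The table gives 1 pooled value per gene and group, so no value per library and no replicate SD can be shown. The values follow reads per length without scaling for depth, and a value of 1 stood for about 16.3 reads per kb of transcript. Converted back to reads, the values amount to a mean of 14787925 counts per untreated library and 18353108 per H2O2 library. The median log2 ratio of the 8851 genes with values of at least 5 in both groups was 0.27, a 1.20-fold shift, and every log2 ratio below has this shift taken off. Each is followed by the standard error implied by the authors' p-value where one is given. The words rose and fell are kept for genes whose adjusted p in the authors' deposited table was under 0.05 and whose centred ratio also passed an adjusted p of 0.05. Genes were counted where the mean of both values was at least 5, the level limit, which left 9703 genes (16.1%). Of these, 601 passed with an untreated value under 5, so through their H2O2 value, and 370 of them are among the risen genes, while 251 had an H2O2 value under 5, of which 165 are among the fallen. Bulk libraries do not show whether fewer cells of a kind or less RNA per cell lowered a value.

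Among these 9703 genes, 941 stood at least 2-fold above the median gene after H2O2, which is 9.70%, and 961 stood at least 2-fold below it, which is 9.90%. Without centring these counts were 1588 and 542. A further 5530 genes (57.0%) lay within 1.5-fold of it. The far ends were not alike. At least 4-fold above were 177 genes against 107 below, and at least 8-fold above were 83 against 14. Genes that passed the limit through 1 group alone are part of these counts, which were not split by this. Of 31 small nuclear RNA (snRNA) genes above the limit, 26 passed only through their H2O2 value. The lower quartile of the centred log2 ratio of all 31 was 3.98, which says nothing about the class, because the limit itself selected for high ratios here. By the tests, 2241 of 9699 tested genes rose (23.1%) and 1323 fell (13.6%), and the median of the implied standard errors was 0.22 log2 units. With the centred test alone 2133 genes lay lower (22.0%), because the deposited test was made on uncentred ratios and asks more of a gene that is lower. Over all 18522 genes with an adjusted p, 17.2% rose and 9.60% fell. Of the 941 genes at least 2-fold higher, 933 also rose by the tests, and of the 961 lower ones 934 fell.

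**Figure D1:**
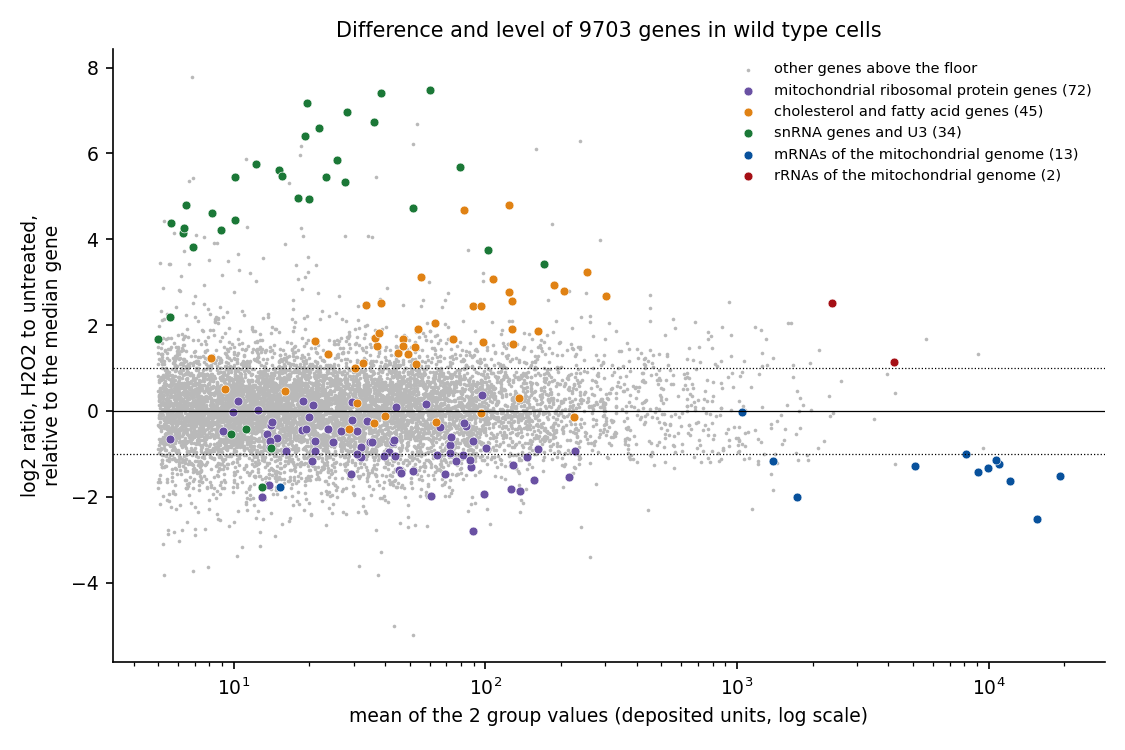
Each point is a gene above the level limit, with the mean of its untreated and H2O2 values on a log axis and its centred log2 ratio (H2O2 over untreated) on the other. Dotted lines mark 2-fold above (941 genes) and below (961 genes) the median gene, and colours mark mitochondrial ribosomal protein genes, cholesterol and fatty acid genes, snRNA and U3 genes, and the mRNAs and rRNAs of the mitochondrial genome. The snRNA and U3 genes, most of which passed the limit through their H2O2 value, and the lipid genes lie mostly above 0, and the mitochondrial ribosomal protein genes and mitochondrial mRNAs mostly below it.

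The promoters of 4 genes show the sequence in front of genes that the results below turn on: 2 immediate early genes, a gene of cholesterol synthesis and a gene of the mitochondrial ribosome. Each run holds the 250 bases before the start of the gene, 5′ to 3′ on the gene's own strand, from RefSeq (GRCh38.p14). Capitals mark every match to the 9 motifs looked for: the TATA box in FOS, 2 copies of the CArG box, the site of the serum response factor, in EGR1, 2 CCAAT boxes (as ATTGG, the other strand) and a TATA box in HMGCS1, and an E-box (CACGTG) and a YY1 site (on the other strand) in MRPL36. The windows lie at chr14:75278578-75278827 (plus strand) for FOS, chr5:138465229-138465478 (plus strand) for EGR1, chr5:43313413-43313662 (minus strand) for HMGCS1 and chr5:1799838-1800087 (minus strand) for MRPL36.
FOS: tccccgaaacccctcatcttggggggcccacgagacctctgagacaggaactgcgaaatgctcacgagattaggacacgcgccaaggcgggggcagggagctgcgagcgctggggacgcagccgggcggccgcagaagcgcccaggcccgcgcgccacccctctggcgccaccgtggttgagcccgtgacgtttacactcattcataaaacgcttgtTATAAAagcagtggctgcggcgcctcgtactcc
EGR1: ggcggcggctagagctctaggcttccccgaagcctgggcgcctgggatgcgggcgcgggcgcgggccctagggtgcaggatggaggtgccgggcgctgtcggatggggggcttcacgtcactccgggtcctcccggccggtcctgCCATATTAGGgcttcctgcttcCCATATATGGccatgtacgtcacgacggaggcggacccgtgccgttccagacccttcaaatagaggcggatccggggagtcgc
HMGCS1: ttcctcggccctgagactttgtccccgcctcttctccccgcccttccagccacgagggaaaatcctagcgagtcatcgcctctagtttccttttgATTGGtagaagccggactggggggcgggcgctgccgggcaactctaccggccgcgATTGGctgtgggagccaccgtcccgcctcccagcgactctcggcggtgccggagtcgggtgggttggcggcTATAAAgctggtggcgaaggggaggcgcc
MRPL36: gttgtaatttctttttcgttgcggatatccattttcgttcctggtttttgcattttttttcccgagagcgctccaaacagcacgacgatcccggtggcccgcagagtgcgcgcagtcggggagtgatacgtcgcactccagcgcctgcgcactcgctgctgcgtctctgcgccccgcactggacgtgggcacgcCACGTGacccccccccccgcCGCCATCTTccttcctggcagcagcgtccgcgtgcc
The TATA box of FOS stood 33 to 28 bases before the start, the CArG boxes of EGR1 stood at 105 to 96 and 83 to 74, the CCAAT boxes of HMGCS1 at 155 to 151 and 100 to 96 and its TATA box at 29 to 24, and the E-box of MRPL36 at 56 to 51 and its YY1 site at 36 to 28. A match of letters is a description and not a bound site.

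The 20 protein-coding genes with the highest ratios rose from 13.1-fold upward, and all 20 passed both tests. They were of several kinds, and many had few reads before H2O2. Many also had an untreated value under 5, so their H2O2 value decided that they were counted. EGR4, a zinc finger transcription factor, went from 1 to 527.5 mean counts, a 438-fold ratio of counts whose counting interval (95%) ran from 121 to 3621. By the deposited values, which carry an added count and set the ranking, it was 219-fold. ATF3, a transcription factor of the stress response, went from 288 to 7141 mean counts (4.36 ± 0.21, implied standard error). IGFBP5, which binds insulin-like growth factors outside the cell, went from 130.5 to 2659.5 (4.07 ± 0.22).

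KLF4, a transcription factor of epithelial differentiation and reprogramming, went from 52 to 941 mean counts (3.88 ± 0.25). DUSP2, a nuclear phosphatase of MAP kinases, went from 197.5 to 3232 (3.76 ± 0.22). The deposited value of ACTA2, smooth muscle actin, went from 28.6 to 542 (3.98 ± 0.19). Some of the others are best known from other cell types and had only a few reads in untreated cells. CD79A, part of the B cell receptor, went from 11.5 to 225.5 mean counts (3.91 ± 0.40). PTPN6, a phosphatase of blood cells, went from 11 to 237.5 (4.04 ± 0.40). PPP1R27 (8.5 to 193.5), MFAP4 (20 to 380) and TNFRSF11B (17 to 284) were of a like low level before treatment, and KIAA1683 went from 61.5 to 1444.5.

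The 20 protein-coding genes with the lowest ratios fell by 6.36-fold to 37.1-fold, and all 20 passed both tests. The level limit fixes that a gene this far down was well above 0 before H2O2. Several, such as DNASE1L2 and PET100, had an H2O2 value under 5 and were counted through their untreated value. CTU1, an enzyme that thiolates uridines in transfer RNAs, went from 2133.5 to 374.5 mean counts (-2.78 ± 0.22). ATOH8, a basic helix-loop-helix transcription factor, went from 3049 to 568.5 (-2.69 ± 0.21), and MRPL36, a protein of the large mitochondrial ribosomal subunit, from 1627 to 280 (-2.80 ± 0.23). ZNF784 (634 to 107.5), ZNHIT2 (1277 to 235.5), LENG1 (982 to 185), ZNF35 (262.5 to 46), ZNRD1 (319.5 to 59), SP140 (198.5 to 34), DNASE1L2 (200.5 to 27.5) and PET100 (117 to 20) fell as far. PET100 takes part in the assembly of cytochrome c oxidase. Of the 20 lowest genes 8 lie on chromosome 19, against 4 of the 20 highest, and both sets are short, with median spans of 6.59 and 6.41 kb.

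**Figure D2:**
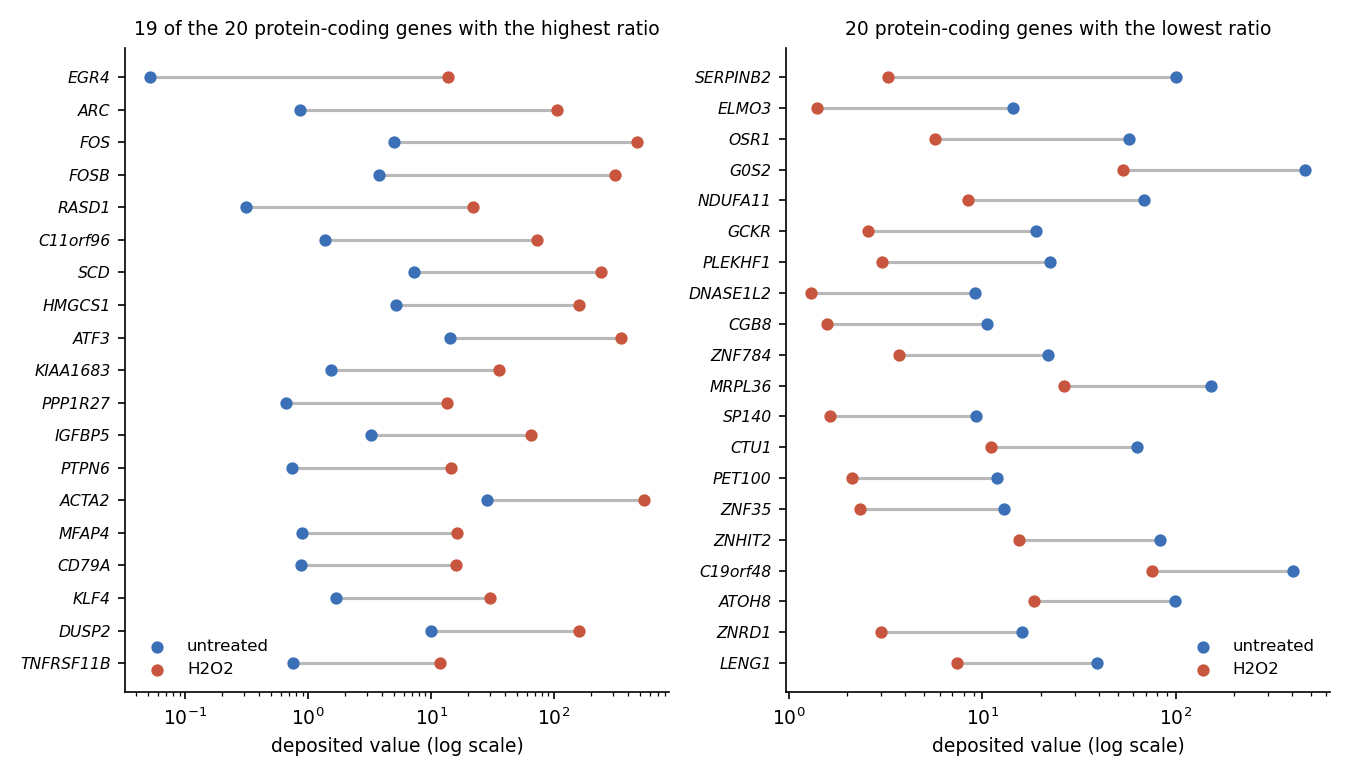
Deposited values (log axis, reads per length) in untreated (blue) and H2O2-treated cells (red) of 19 of the 20 protein-coding genes with the highest ratio (left) and the 20 with the lowest (right), 1 pooled value per gene and group joined by a line. The centred log2 ratios run from 3.72 to 7.78 on the left and from -2.67 to -5.21 on the right.

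The order of the most abundant RNAs, in reads per length, changed as well. In untreated cells 9 of the 10 highest values belonged to the mitochondrial genome, led by MT-CO2 at 26978, and the 10th was LGALS1, galectin 1. After H2O2 the highest value was that of ACTB, cytoplasmic beta actin, which went from a value of 4508.5 to 13632 and rose by 1.33 ± 0.19 on the log2 scale. MYH9, the heavy chain of non-muscle myosin, went from 2329.9 to 8915.3 and rose by 1.67 ± 0.20. LGALS1 went from 11489 to 7566.8 and fell by 0.87 ± 0.19.

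The lists below are described by counts and medians beside those of all genes above the limit, whose median was 0.03 and of which 23.1% rose and 13.6% fell. The highest, the lowest and the most abundant member of a list were taken by rule, and further members were chosen after their values were seen. Mean counts are printed only for genes whose length was settled, and deposited values for the others.

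Of 31 immediate early factors listed, 29 were above the limit, and of these 16 rose and 1 fell (median 0.87). An untreated value under 5, which made the H2O2 value decide that they were counted, was found in 5 of the 16. The rise was not shared by the whole family. JUNB, an AP-1 subunit, went from 3669 to 23152.5 mean counts (2.39) and JUND from 3902.5 to 17874.5 (1.93), whereas FOSL1 (11166 to 9223.5, -0.54) and FOSL2 (2657.5 to 2287, -0.48), 2 further AP-1 subunits, did not pass both tests. EGR1 went from 573 to 5524 (3.0), while NAB2, a corepressor that binds EGR proteins and is itself one of their targets, went from 1385.5 to 422 and fell by 1.98. The orphan nuclear receptor NR4A1 went from 145.5 to 688 (1.97). MCL1, IER3 and IER5 stood at -0.11, -0.15 and -0.15. Among 21 phosphatases and inhibitors of MAP kinase signalling, 19 were above the limit, 7 rose and 2 fell. DUSP1 rose (3381.5 to 6543.5, 0.68) with DUSP2 and DUSP8 (443 to 1433, 1.42), and DUSP4 went from 1756.5 to 733.5 and fell by 1.53. ZFP36, which binds AU-rich elements and brings short-lived mRNAs to decay, went from 300 to 3372 (3.22 ± 0.19), the highest of 26 genes of mRNA deadenylation and decay above the limit, of which 5 rose and 0 fell in both tests and in the centred test alone.

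Of the metabolic lists described here, those of lipid synthesis had the largest shares of risen members. Cells sense cholesterol in the endoplasmic reticulum, and when it is low the SREBP transcription factors are cut free and switch on both sterol and fatty acid genes. Of 27 genes of cholesterol synthesis and uptake listed, 22 were above the limit, 18 rose and 0 fell, with a median of 1.98. SREBF2, which encodes the SREBP of the sterol branch, went from 898.5 to 4469 mean counts (2.04 ± 0.20). SQLE, the squalene epoxidase, went from 197.5 to 2086 (3.13). The change ran along the pathway with gaps, since PMVK (634 to 569, -0.42), EBP (1322.5 to 1549.5, -0.04) and NSDHL (644 to 885.5, 0.19), all enzymes of it, did not pass the tests, and SCAP, the escort of SREBP, stood at -0.12.

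Of 29 genes of fatty acid synthesis and desaturation listed, 25 were above the limit, 19 rose and 0 fell, and the median was 1.35. SCD, the desaturase that makes monounsaturated fatty acids, led the list with 631 mean counts before and 21133.5 after H2O2 (4.80). FADS2, the first desaturase of polyunsaturated fatty acids, went from 665.5 to 5451.5 (2.76 ± 0.19), and the value of FASN, the fatty acid synthase, stood 6.43-fold higher (2.68 ± 0.21). SREBF1, the SREBP of the fatty acid branch, went from 705 to 2712 (1.67 ± 0.20), and INSIG1, which holds SREBP back in the endoplasmic reticulum and is a target of it, from 615 to 4005 (2.43). ACLY, the ATP citrate lyase, went from 2091.5 to 7403 (1.55), and ELOVL6, an elongase, stayed at -0.28 (922.5 to 914). FDPS and MVK stand in both lists. Relative to protein-coding genes of the same span class, the medians were 2.03 for cholesterol and 1.26 for fatty acid genes.

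Genes of adhesion to the matrix rose widely. Integrins bind matrix outside the cell, and at focal adhesions talin, vinculin, filamins and actinins tie them to actin. Of 14 integrins listed, 11 were above the limit, 8 rose and 0 fell in both tests (median 1.13), and 1 lay lower in the centred test alone. Of the 8, 3 had an untreated value under 5. ITGB1, the beta 1 subunit shared by most matrix receptors, went from 12480 to 35539 mean counts (1.24 ± 0.20). ITGA3, a laminin-binding alpha subunit and the most abundant by value, went from 29329.5 to 77100.5 (1.13). ITGB4, of the hemidesmosome, was highest at 2.26 (66 to 384.5), and ITGA2, a collagen-binding subunit, was lowest at -0.76 (522 to 370.5).

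Of 25 focal adhesion proteins listed, 24 were above the limit, 17 rose and 0 fell in both tests, with a median of 1.10, and 2 lay lower in the centred test alone. LIMS1, an adaptor of the integrin-linked kinase, went from 876.5 to 3187 mean counts (1.59 ± 0.21), ACTN1, an actinin, from 8096.5 to 27438 (1.49), and TLN1, talin, from 7038.5 to 17700 (1.06). VCL, vinculin, rose by 1.58 and FLNA, filamin A, by 1.04. The adaptor BCAR1 (5982.5 to 4755.5, -0.60), filamin FLNC (16281 to 13570, -0.53) and the focal adhesion kinase PTK2 (1157 to 1371.5, -0.02) did not pass both tests. Both lists hold long genes, and relative to the same span class their medians were 0.89 for integrins and 0.98 for focal adhesion proteins.

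Matrix genes moved in both directions. Of 26 collagens and laminins listed, 18 were above the limit, 10 rose and 3 fell (median 0.76). Many are long genes, and relative to the same span class the median was 0.49. COL8A1, a short-chain collagen of endothelial and epithelial matrices, went from 7002.5 to 35178.5 mean counts (2.06 ± 0.19), and COL4A1, of basement membranes, rose by 2.19 ± 0.20. LAMA5, a laminin alpha chain, went from 356.5 to 1188.5 (1.47). COL5A1, a fibrillar collagen, went from 360.5 to 110 (-1.97), LAMB3 went from 1656.5 to 931.5 (-1.10) and COL13A1 fell by 1.15. Of 30 proteases of the matrix and their inhibitors, 21 were above the limit, 11 rose and 2 fell. MMP2, a gelatinase, went from 15291 to 58495.5 (1.67 ± 0.20) and TIMP2, its inhibitor and cofactor of activation, from 6528 to 28451.5 (1.86 ± 0.20). MMP14, which activates MMP2 at the cell surface, went from 13390.5 to 29993.5 (0.90), while TIMP1 stood at -0.47 (2508.5 to 2183). The 2 that fell were ADAMTS1 (5067 to 3521, -0.79) and SERPINB2 (1922 to 61.5, -5.21), an inhibitor of plasminogen activators.

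Of 24 genes of desmosomes, tight and gap junctions, 14 were above the limit, 9 rose and 1 fell. The desmosome members that rose were PKP2 (2.27 ± 0.21), JUP (626 to 1841.5, 1.29), DSP (639.5 to 1844.5, 1.26) and DSG2 (690 to 1877, 1.17). PKP3, another plakophilin, fell by 1.07 (133 to 76). The tight junction scaffold TJP1 rose (524.5 to 1160.5, 0.88). Of 67 protocadherins listed only 5 were above the limit, of which 4 rose, PCDH10 (1856 to 6980, 1.64), PCDHGB7 (89.5 to 544.5, 2.32), PCDHGA11 and PCDHGC3. The last 3 share the exons of the gamma cluster, which can split their reads. Of the 4 protocadherins that rose, 3 had an untreated value under 5, so their H2O2 value decided that they were counted.

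**Figure D3:**
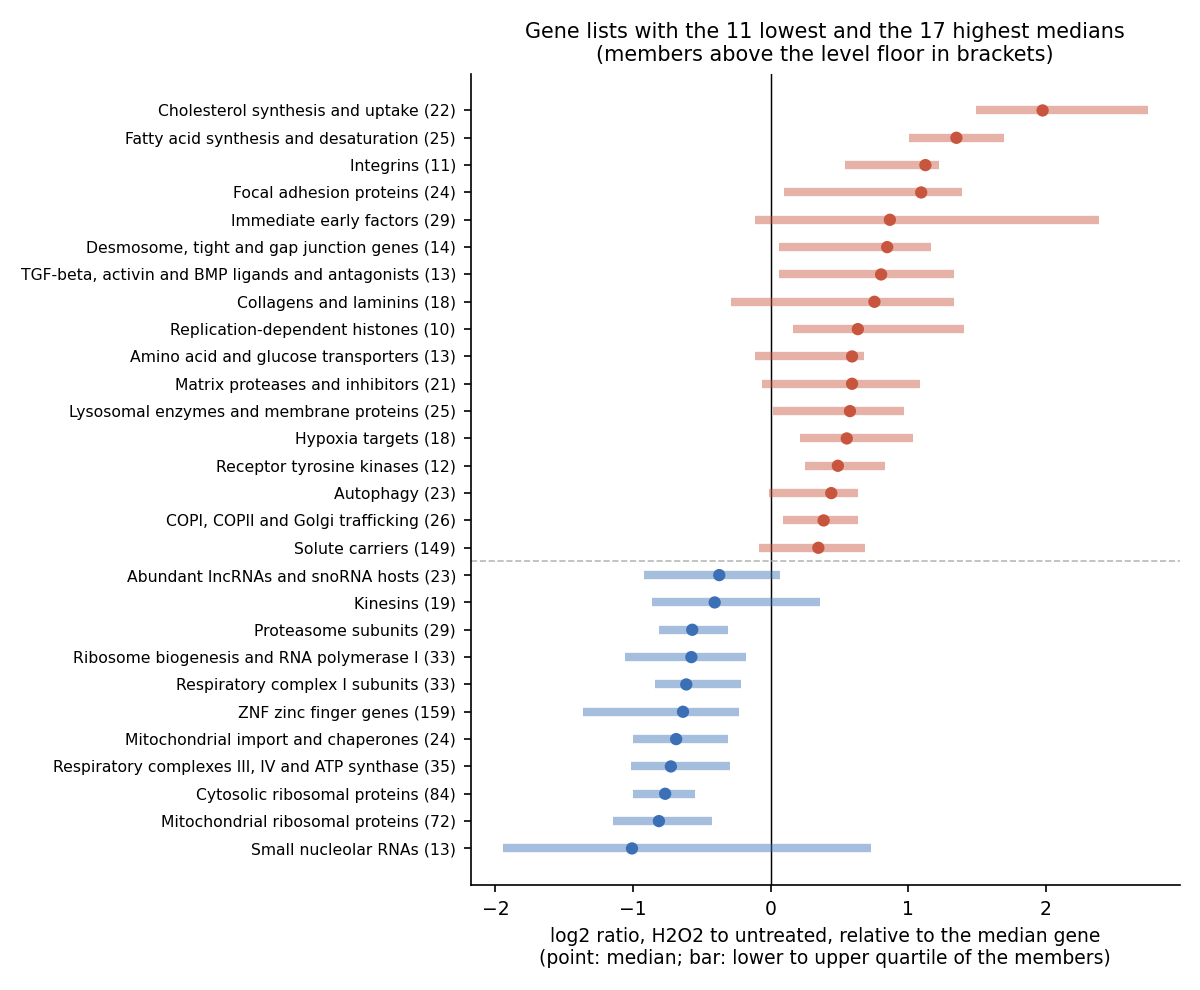
Centred log2 ratios (H2O2 over untreated) of the gene lists with the 17 highest and 11 lowest medians among lists with at least 10 members above the level limit (number in brackets); the point is the median of the members and the bar runs from the lower to the upper quartile. Cholesterol (median 1.98) and fatty acid genes (1.35) lie highest, and mitochondrial ribosomal proteins (-0.81) and cytosolic ribosomal proteins (-0.77) lie below 0.

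Receptors and ligands were described next. Of 24 receptor tyrosine kinases listed, 12 were above the limit, 6 rose and 0 fell in both tests and in the centred test alone. PDGFRB, the receptor of PDGF-BB, went from 407.5 to 3987 mean counts (3.02 ± 0.20), and DDR1, a collagen receptor, from 2057.5 to 16232.5 (2.71 ± 0.20). The most abundant after DDR1, AXL, stood at 0.26 (8111.5 to 11699.5), and EGFR at 0.04. Among VEGF, PDGF and FGF ligands, 5 of the 11 above the limit rose and 2 fell. PDGFB, a ligand of PDGFRB, went from 34.5 to 383 (3.17 ± 0.29), FGF2 rose by 1.02, VEGFC went from 1364 to 609.5 (-1.43) and FGF5 from 2397 to 1247.5 (-1.21). VEGFA was close to the median gene at 0.19.

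Of 19 ligands and antagonists of the TGF-beta family, 13 were above the limit, 8 rose and 0 fell in both tests and in the centred test alone (median 0.80). INHBB, an activin subunit, went from 77 to 716 mean counts (2.93 ± 0.27), TGFB2 from 707.5 to 4675 (2.45 ± 0.22), TGFB1 from 3013 to 6368 (0.81) and LTBP2, a matrix protein of the latent TGF-beta binding family, from 428 to 2294.5 (2.15). FSTL3, an activin antagonist and the most abundant gene to rise in the list, went from 4446.5 to 13517 (1.34). The feedback targets of TGF-beta and BMP were divided, with 5 of 14 risen and 3 fallen. PMEPA1, a target of TGF-beta signalling, went from 482 to 1093 (0.91). The BMP targets ID1 (12890.5 to 3129, -2.31 ± 0.20), ID3 (27586.5 to 6864.5, -2.27 ± 0.20) and SMAD6 (691 to 360, -1.21) fell, while ID2 went from 361.5 to 1641.5 and rose by 1.91. BMP4 itself rose (1165 to 2710.5, 0.95).

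Of 20 cytokines of the interleukin-6 family and others, 10 were above the limit, 4 rose and 3 fell. TNFSF9 went from 384.5 to 1728 mean counts (1.90), CXCL8 from 173 to 662.5 (1.66) and CSF1 from 992.5 to 2939 (1.30). IL1B went from 722.5 to 170 (-2.35), CLCF1 from 2432.5 to 861 (-1.77) and IL6 from 314.5 to 166 (-1.19). LIF, the most abundant, stood at -0.14 (6577.5 to 7203). The median of this list stood at -0.11, and at 0.16 without centring. That of the ligand list with VEGFA went from 0.24 to -0.21 when the level limit was raised to 20.

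Wnt genes as a list stood near all genes above the limit, with a median of 0.08, or -0.22 relative to the same span class. Of 27 listed, 17 were above the limit, 5 rose (29.4%) and 3 fell (17.6%), beside 23.1% and 13.6% over all genes. Single members lay far out in both directions. DKK3, a secreted protein of the Dickkopf family, went from 5289 to 21378 mean counts (1.75 ± 0.20), and the co-receptor LRP5 from 788.5 to 2140.5 (1.17). DKK1, an inhibitor of Wnt receptors, went from 3029.5 to 710 (-2.36 ± 0.21), and the receptors FZD8 (1070 to 539.5) and FZD2 (3402 to 2025.5) fell by 1.25 and 1.02. Of 15 Notch genes 5 were above the limit and 4 of these rose: the target HES1 (245.5 to 1180.5, 1.99), HES4 (1614 to 5442, 1.48), the ligand JAG1 (0.99) and the receptor NOTCH2 (0.50, a call lost when scaled by total counts, at 0.46). Of 17 KLF and SP factors 14 were above the limit, 6 rose and 0 fell in both tests. KLF2, a factor induced by flow and by MEK5 signalling in endothelium, went from 1800.5 to 9153.5 (2.08 ± 0.20), KLF6 from 742 to 1907 (1.09), and KLF12 stood lowest at -0.75. Among developmental factors the odd-skipped pair went opposite ways, OSR2 from 65 to 666 (3.07 ± 0.25) and OSR1 from 2087 to 206 (-3.60 ± 0.23).

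The list of peroxide-removing enzymes and other redox genes was not one that rose. Of 28 listed, 25 were above the limit, 3 rose and 4 fell. The risers were SOD3, the secreted superoxide dismutase (103.5 to 333 mean counts, 1.41), PRDX3, the mitochondrial peroxiredoxin (2312.5 to 4792, 0.78), and the stress protein SESN2 (1059 to 1834.5, 0.52), whose call was lost when scaled by total counts (0.48). Glutathione peroxidases GPX1 (-0.94) and GPX3 (597.5 to 336.5, -1.09), thioredoxin TXN (5195 to 3644.5, -0.78) and glutaredoxin GLRX2 (-0.92) fell. Catalase, CAT, stood at 0.56 and PRDX1 at 0.05 (2483 to 3098), neither past both tests. The sign of the list median depended on the scaling. TXNIP, which binds thioredoxin and reports glucose and redox state, went from 1639 to 573 and fell by 1.78 ± 0.21, and its relative ARRDC3 from 535.5 to 253.5 (-1.34).

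Metallothioneins are small cysteine-rich proteins that hold zinc and copper, and those named here stood below the median gene. MT2A went from 61775 to 31788.5 mean counts (-1.23 ± 0.20), MT1E from 20006 to 6719 (-1.84 ± 0.20) and MT1M from 384 to 157 (-1.55), while MT1X stood at -0.17 and MT1F at -0.84. These are near-identical genes, so reads may be split between them. In the same list the zinc transporters SLC39A6 (0.93), SLC39A10 (0.77) and SLC30A1 (0.69) rose. Of 16 genes of iron handling above the limit 6 rose and 1 fell. CYBRD1, a ferric reductase, went from 1113.5 to 5716 (2.09 ± 0.21), FTL, ferritin light chain, rose by 0.55, HMOX1, haem oxygenase 1, stood at 0.31 (878 to 1308.5) and HMOX2 fell by 1.02 (1453.5 to 865.5).

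Genes of lysosomes, autophagy and the secretory route stood above the median gene by smaller steps. Of 25 lysosomal genes above the limit (26 listed) 13 rose and 0 fell in both tests, with a median of 0.58, and 1 lay lower in the centred test alone. PSAP, the precursor of the saposins, went from 24739.5 to 79866 mean counts (1.42), LIPA, the acid lipase that frees cholesterol from LDL, from 671 to 2243.5 (1.47) and LAMP1 from 4563.5 to 11015.5 (1.0), while GLA, an alpha galactosidase, was lowest at -0.79 without passing both tests. TFEB and TFE3, the factors that switch on lysosomal genes, stood at -0.05 and 0.23. Of 23 autophagy genes above the limit (25 listed) 9 rose and 0 fell in both tests, among them ULK2 (93 to 373, 1.72), MAP1LC3B (1539 to 4667, 1.33) and ULK1 (953.5 to 2213.5, 0.95). Of 26 genes of COPI, COPII and Golgi trafficking 12 rose and 0 fell, with SEC23A highest (821.5 to 2314.5, 1.23) and SEC13 lowest (3993.5 to 3518, -0.45). Of 149 solute carriers above the limit 55 rose and 9 fell. SLC26A2, a sulphate transporter, went from 371.5 to 1335 (1.57), and SLC16A14 from 596.5 to 127 (-2.49). The cystine carrier SLC7A11 fell by 1.01 (1166.5 to 698.5), and the glutamine carrier SLC1A5 by 0.79 (4010 to 2798.5).

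In the hypoxia list, 9 of the 18 genes above the limit rose and 1 fell. EPAS1, which encodes HIF-2 alpha, went from 453.5 to 1971.5 mean counts (1.85 ± 0.37), and the collagen prolyl hydroxylases P4HA1 (434.5 to 1536.5, 1.55) and P4HA2 (488 to 1445, 1.30) and the lysyl hydroxylase PLOD2 (2239.5 to 5426.5, 1.01) rose. ANGPTL4 went from 1341 to 696 and fell by 1.21. Glycolysis showed little of this, with PFKFB3 (0.94) and PGK1 (0.55) the 2 of 20 that rose and GAPDH the lowest at -0.69 (36039.5 to 26915).

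Genes of G1 control as a list stood near all genes above the limit. Of 28 genes of G1 cyclins, kinases and inhibitors above the limit, 8 rose (28.6%) and 3 fell (10.7%), beside 23.1% and 13.6% over all genes. The sign of the list median depended on the scaling. CDKN2B, the p15 inhibitor, went from 270.5 to 1431.5 mean counts (2.13), CDKN1A, p21, from 15118.5 to 32107 (0.82) and CDK6, a kinase that p15 blocks, from 609.5 to 2175 (1.57). CDKN1B, p27, went from 1918.5 to 1028 (-1.17), and MYC stood at 0.01. Of 23 caspases, TNF receptors and inhibitors of apoptosis above the limit 4 rose and 6 fell, with a median of -0.24 (0.026 without centring), and of 15 genes of the BCL2 family 4 rose and 1 fell. The death receptors TNFRSF10B (2533.5 to 5040.5, 0.72) and FAS (0.57) rose, whereas BIRC3 (324 to 117, -1.73), BIRC2 (1793 to 1232.5, -0.81) and BIRC5 (3027 to 1503.5, -1.28), inhibitors of apoptosis, fell. Of 19 kinesins above the limit 3 rose and 5 fell, and 2 of the 5 were counted through their untreated value, with an H2O2 value under 5. KIF2C (1460.5 to 515.5, -1.77), KIF18A (290.5 to 105.5, -1.72) and KIF20A (968 to 535, -1.12), all of the mitotic spindle, fell, and the transport kinesins KIF3B (641 to 1591, 1.04), KIF1C (3741.5 to 8405, 0.90) and KIF5B (1555 to 2869, 0.61) rose. KIF11 and KIF23, also of the spindle, stood at -0.74 and -0.41 without passing both tests.

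Genes for ribosomes and respiratory chains lay below the median gene. Of 77 mitochondrial ribosomal proteins listed, 72 were above the limit, 0 rose and 37 fell in both tests, 48 lay lower in the centred test alone, and the median was -0.81. After MRPL36, the lowest were MRPL12 (-2.02), MRPL55 (1070 to 327 mean counts, -1.98), MRPS12 (2456 to 771.5, -1.94) and MRPL27 (3146 to 1043, -1.86). MRPS27, the highest, stood at 0.37 (1411.5 to 2195) and did not pass the centred test. Of 84 cytosolic ribosomal protein genes above the limit, 0 rose and 40 fell in both tests, and 66 lay lower in the centred test alone (median -0.77). RPL13 went from 31298 to 16704 (-1.17) and RPS18 from 18552 to 9549.5 (-1.23), while RPL4 stood at -0.23 and RPS23, the highest, at 0.20. Processed pseudogenes of these genes leave part of their reads uncertain.

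Among the 33 genes of ribosome biogenesis and RNA polymerase I above the limit, 1 rose and 14 fell, with 19 lower in the centred test alone. POLR1C, a subunit shared by RNA polymerases I and III, was lowest at -2.66 ± 0.22, followed by UTP3 (1479 to 625.5 mean counts, -1.51) and TAF1D (1698.5 to 760.5, -1.43). RRN3, the factor that brings RNA polymerase I to ribosomal DNA, was the 1 that rose (404 to 780, 0.68), and UBTF, its partner at the promoter, stood at -0.11. Of 23 abundant long non-coding RNAs and hosts of small nucleolar RNAs above the limit, 5 rose (21.7%) and 7 fell (median -0.37). Among the hosts, GAS5 went from 8015.5 to 4213.5 (-1.20), SNHG17 from 1343 to 661 (-1.29) and SNHG8 from 5688.5 to 3578 (-0.94). In the same list MALAT1 rose by 1.23, and NEAT1 stood at -0.08.

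Of 33 nuclear complex I subunits above the limit (38 listed), 0 rose and 11 fell in both tests, and 19 lay lower in the centred test alone (median -0.61). NDUFA11, an accessory membrane subunit, was far below the others, from 1254.5 to 154.5 mean counts (-3.28 ± 0.23). The next lowest, NDUFB9, fell by 1.61, and the core subunit NDUFS1 stood at 0.06 (941.5 to 1179). Of 35 subunits of complexes III and IV and ATP synthase 0 rose, 16 fell and 23 lay lower in the centred test alone (median -0.72). CYC1, cytochrome c1, went from 3612 to 1714.5 (-1.34), UQCR10 fell by 1.32, and ATP5B, the catalytic beta subunit, stood at -0.05 (7488 to 8702). Of 24 genes of mitochondrial import and chaperones 1 rose and 9 fell, with 14 lower in the centred test alone. The small TIM chaperones of the space between the membranes were the lowest, TIMM8A at -2.41 ± 0.24, TIMM10 (1498 to 370, -2.28 ± 0.23), TIMM8B (1275.5 to 603, -1.35) and TIMM9 (381.5 to 184.5, -1.31). TOMM34, a cytosolic cochaperone of import, rose by 0.70 (3886.5 to 7607.5). Of 22 genes of the tricarboxylic acid cycle, in the same organelle, 5 rose (22.7%) and 1 fell: IDH3A rose by 0.95, and IDH3B, another subunit of the same enzyme, fell by 1.03 (1384 to 815.5).

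The proteasome lay lower as well, with 0 of 29 subunits above the limit risen, 8 fallen and 16 lower in the centred test alone (median -0.57). PSMC5 (2941.5 to 1448.5 mean counts, -1.29) and PSMC3 (4765 to 2418, -1.25), ATPases of the base, were lowest, and PSMC6, another of them, was highest at 0.01. Of 159 ZNF zinc finger genes above the limit, from 514 listed, 13 rose and 66 fell, with 89 lower in the centred test alone (median -0.64). Of the 66, 22 had an H2O2 value under 5, so their untreated value decided that they were counted. Likewise 6 of the 13 had an untreated value under 5. ZNF784 and ZNF35 were lowest, then ZNF175 (458 to 95, -2.53), and ZNF106, a long gene, rose by 1.56. Of 26 polyadenylation and termination factors 4 rose and 6 fell, PCF11 (1.15) against CSTF1 (910 to 368.5, -1.57), and the sign of that list's median depended on the scaling. Relative to protein-coding genes of the same span class the medians were -0.60 for mitochondrial ribosomal proteins, -0.44 for cytosolic ribosomal proteins, -0.37 for complex I, -0.41 for complexes III to V, -0.44 for the proteasome and -0.65 for ZNF genes.

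The mitochondrial genome makes its RNA from long transcripts of both strands, which are cut apart at the transfer RNAs, and a further transcript stops after the 2 ribosomal RNAs. Its share of all mean counts went from 14.3% to 6.34%. The ribosomal RNAs rose and the messenger RNAs fell. MT-RNR1, the 12S RNA, went from 9493.5 to 64901.5 mean counts (2.5 ± 0.20), and MT-RNR2, the 16S RNA, from 58743.5 to 155104 (1.13 ± 0.19). Together their share of mitochondrial counts went from 3.24% to 18.9%. Of 13 messenger RNAs 11 fell, from MT-ND3 (144736.5 to 30407.5, -2.52 ± 0.19) to MT-ND4 (228643 to 138167.5, -0.99 ± 0.20). MT-ND6, the 1 messenger RNA on the minus strand, went from 22709.5 to 6843 (-2.0 ± 0.19). MT-ND4L, which overlaps MT-ND4, stood at -0.03 ± 0.19 (4665.5 to 5503), and MT-ATP8, which overlaps MT-ATP6, had only 75.5 and 26 mean counts and missed the tests. The transfer RNA MT-TP fell by 1.48. All lie on 1 genome and are not independent cases, and copies of mitochondrial DNA in the nuclear genome make some of these reads ambiguous.

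Small nuclear RNAs form the spliceosome (U1, U2, U4, U5, U6 and the minor U4ATAC, U6ATAC, U11 and U12) and are made from short genes with their own promoters, most of them by RNA polymerase II and U6 by RNA polymerase III. Of 1872 annotated snRNA genes, 31 were above the limit, and 26 of these passed only through their H2O2 value, so their number and median say nothing about the class. The 5 that had a value of at least 5 in untreated cells were RNU5A-1, which rose by 3.43, RNU4-47P, which fell by 1.77, and the U6 copies RNU6-516P, RNU6-722P and RNU6-8, at -0.53, -0.42 and -0.87, which did not pass both tests. RNVU1-7 went from 0 to 204.5 mean counts, at least 113-fold higher against that floor, and RNU1-1 from 0 to 148.5, at least 82.2-fold. Copies of a family are near-identical, so single genes are uncertain, and sums over all genes of a family, whatever their level, are given next.

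Summed mean counts of U1 genes went from 44 to 1925, a centred ratio of 36.3 (95% counting interval 29.4 to 45.4, which covers counting error only). U5 went from 48.5 to 818 (14.0, interval 11.4 to 17.4) and the minor spliceosome RNAs from 16.5 to 449.5 (22.6, interval 16.0 to 33.1). U3, the small nucleolar RNA of ribosomal RNA processing, which has its own promoter, went from 92 to 2530 (22.8, interval 19.7 to 26.6). The ratio was lower for the sum of U2 (11.5 to 44.5, ratio 3.21, interval 2.01 to 5.33). It was also lower for that of U4 (46 to 160, ratio 2.89, interval 2.28 to 3.68). Within U4, however, RNU4-2 went from 1 to 104 mean counts (86.4, interval 23.6 to 718) and RNU4-1 from 0 to 24. The U4 sum runs over 96 annotated genes, not split into working genes and pseudogenes. It therefore does not set U4 apart from the families above. RNA polymerase III makes U6, Y RNAs, 7SK and vault RNA. The sum of U6 went from 153.5 to 255.5 (1.38, interval 1.20 to 1.60) and that of Y RNAs from 182.5 to 308.5 (1.40, interval 1.23 to 1.60). These sums run over 1299 and 785 annotated genes, not split into working genes and pseudogenes. They therefore do not give the output of this polymerase. 7SK went from 134 to 556 (3.45, interval 3.01 to 3.95) and vault RNA from 20.5 to 15 (0.608, interval 0.366 to 0.997). Small nucleolar RNAs cut from introns of host genes were lower, the C/D class other than U3 from 578.5 to 407 (0.584, interval 0.533 to 0.640) and the H/ACA class from 238.5 to 192.5 (0.670, interval 0.584 to 0.768). Libraries of this kind recover short RNAs poorly and with a length bias that was not measured here, so its part in these ratios was not tested.

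**Figure D4:**
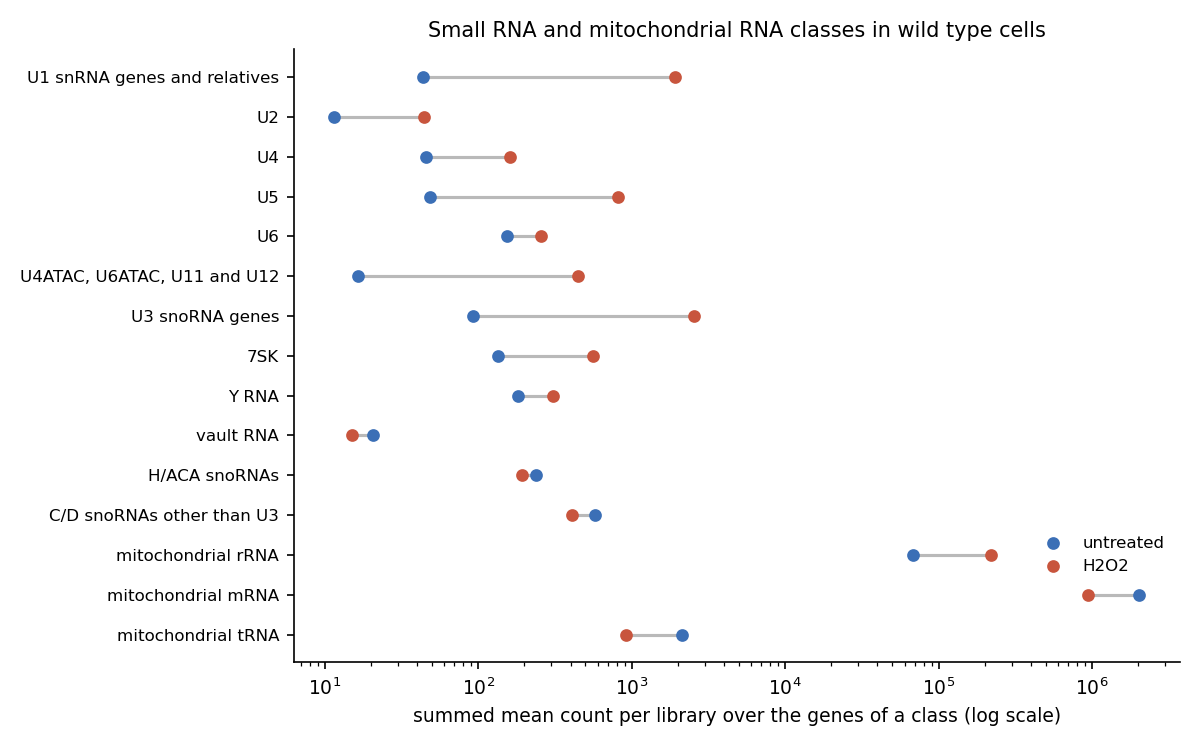
Mean counts per library summed over the genes of each small RNA and mitochondrial RNA class (log axis, not centred), untreated in blue and H2O2 in red, 1 pooled value per group joined by a line. The widest gaps are those of U1 (44 to 1925), U3 (92 to 2530), U5 (48.5 to 818) and the minor spliceosome RNAs (16.5 to 449.5), and C/D and H/ACA snoRNAs were lower after H2O2.

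Among other biotypes above the limit, long intergenic RNAs had a median of -0.37 (157 genes), processed pseudogenes -0.46 (76 genes) and antisense RNAs -0.02 (137 genes), against 0.04 for 9036 protein-coding genes. The lowest non-coding genes were RP11-677M24.1 (411 to 14.5 mean counts, -5.00 ± 0.36) and LINC00973 (1085.5 to 91.5, -3.82 ± 0.25). RP11-677M24.1 lies inside HMGA2, a chromatin protein gene on the same strand, which went from 4324.5 to 1730.5 and fell by 1.59. RP11-244F12.3 (454.5 to 105.5, -2.36 ± 0.26) lies on the other strand of TPM1, a tropomyosin gene, which rose by 2.05. The strand setting of the counting is not given in the sources used here, and reads of overlapping genes cannot be told apart.

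The ratio followed the genomic length of a gene. Among protein-coding genes above the limit the median was -0.53 for 732 genes with a span of up to 5 kb, -0.36 at 5 to 10 kb, -0.13 at 10 to 20 kb, 0.07 at 20 to 50 kb, 0.24 at 50 to 100 kb and 0.29 at 100 to 200 kb, and 0.28 for 579 genes over 200 kb. Of the shortest genes 28.8% stood at least 2-fold lower and 6.83% at least 2-fold higher, whereas of the longest 2.59% stood lower and 14.9% higher. The highest genes of all were short too, with 9 of the top 20 spanning up to 5 kb. Genes with 1 exon had a median of -0.42 and those with over 20 exons 0.21.

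Transcript GC content moved with the ratio as well, from 0.20 where it was up to 40% to -0.11 where it was over 55%. Within spans of up to 10 kb the medians were -0.39, -0.44 and -0.47 from low to high GC, and over 50 kb they were 0.28, 0.25 and 0.21, so that span separated genes within each GC class. By chromosome the medians ran from -0.24 on chromosome 19, whose genes had a median GC of 60.0% and a median span of 15.8 kb, and -0.15 on chromosome 16, to 0.22 on chromosome 21 and 0.32 on chromosome 18, beside -1.34 for the 13 mitochondrial messenger RNAs. Whether labelling, RNA recovery or transcription follows length in these libraries was not tested.

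**Figure D5:**
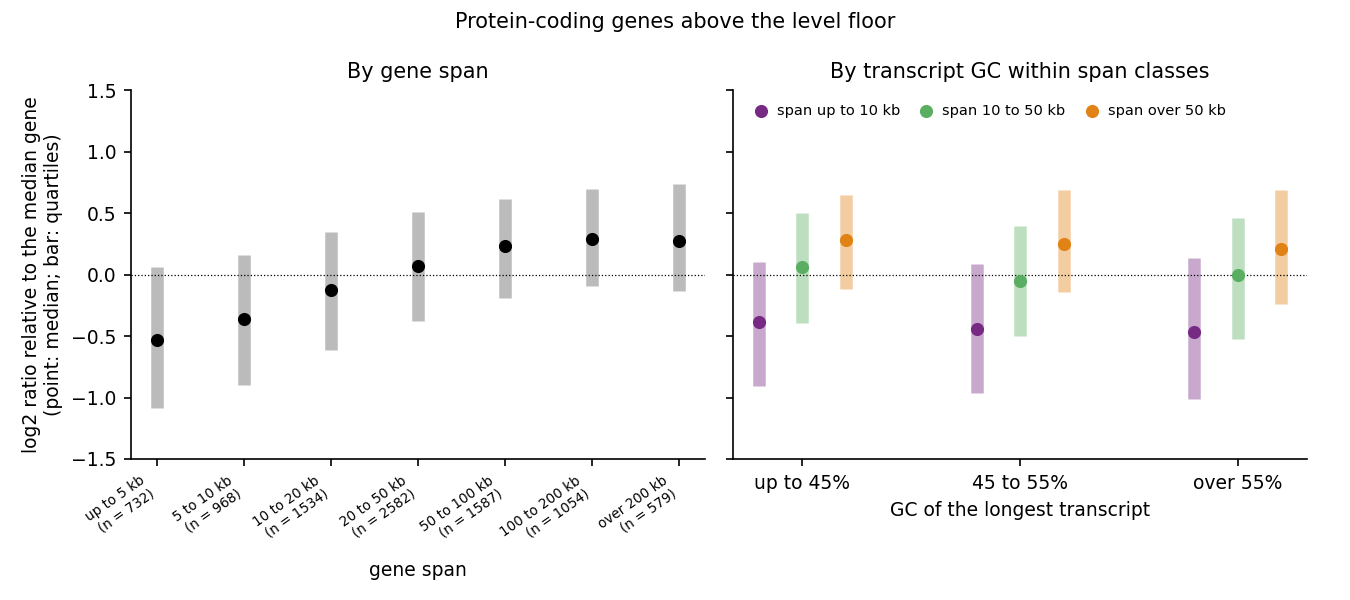
Centred log2 ratio (H2O2 over untreated) of protein-coding genes above the level limit by gene span in kb (left) and by transcript GC content within 3 span classes (right), where points are medians and bars run from the lower to the upper quartile. The median climbs from -0.53 at up to 5 kb to 0.28 at over 200 kb, and in every GC class the genes over 50 kb lie above those of up to 10 kb.

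Promoter windows of 300 bases (250 before and 50 after the start, RefSeq) were matched by symbol to 7535 of 9036 protein-coding genes above the limit (83.4%). The 9 motifs were searched on both strands. The CArG box was present in 21 of 660 promoters of genes at least 2-fold higher (3.18%), in 45 of 4412 promoters within 1.5-fold (1.0%) and in 2 of 688 promoters at least 2-fold lower (0.291%), beside 351 of all 27305 promoters (1.3%). The YY1 site AAGATGGCG, on both strands, had the opposite order, with 9 of 660 (1.36%), 201 of 4412 (4.6%) and 35 of 688 (5.09%), beside 1.8% of all promoters. It was in 11 of 65 matched promoters of mitochondrial ribosomal proteins (16.9%), that of MRPL36 among them. The TATA box TATAAA was in 6.52%, 4.5% and 5.23% of the higher, near and lower genes. In the same order the AP-1 site was in 2.58%, 3.08% and 2.47%, the cyclic AMP element TGACGTCA, which the AP-1 search does not take in, in 3.64%, 3.85% and 3.92%, the EGR site GCGTGGGCG in 1.21%, 1.22% and 1.60%, the sterol regulatory element TCACNCCAC in 1.82%, 0.975% and 0.581%, the E-box CACGTG in 7.58%, 11.3% and 10.5%, and the CCAAT box in 37.6%, 36.5% and 41.6%. Over all promoters these 6 shares were 4.92%, 1.98%, 0.784%, 1.15%, 7.43% and 35.7%, and 12% for the TATA box. Promoter GC was 68.3% in the higher, 66.0% in the near and 63.3% in the lower genes at the median. Matching fell short of 80% for the immediate early (21 of 29) and cholesterol lists (16 of 22), and for genes at least 4-fold higher (82 of 104), so shares over those sets are not given.

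The nearest gene downstream on the same strand was looked up for the genes at least 4-fold higher. The neighbour stood at least 2-fold higher too in 4 of 17 cases at up to 5 kb (23.5%), 10 of 28 at 5 to 20 kb (35.7%), 7 of 34 at 20 to 100 kb (20.6%) and 6 of 64 at over 100 kb (9.38%). For genes within 1.5-fold the shares at the same distances were 12.2%, 13.1%, 13.5% and 12%. The medians of the neighbours differed little, at -0.06, 0.14, 0.04 and 0.09 against -0.05, 0.05, 0.09 and 0.06. The pairs included FOS with LINC01220 at 12.2 kb (10.5 to 87.5 mean counts, 2.68), SCD with OLMALINC at 8.68 kb (21.5 to 145, 2.43) and KIAA1683 with PDE4C at 8.90 kb (7.5 to 42, 2.07). The next gene after JUNB, RNASEH2A at 13.2 kb, fell by 1.62. The higher neighbours also included relatives of the gene itself, MT-RNR2 after MT-RNR1, RNU5B-1 after RNU5A-1 and HSPA1B after HSPA1A. Some had almost no untreated reads, such as RPL7P19 after EGR1 (0.5 to 45.5 mean counts) and RP11-69G7.1 after TPM1 (0 to 39.5). The shares rest on few neighbours and were not tested.

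The labelled cell type was checked against its markers. Of 4 markers of simple epithelium 3 were above the limit and KRT8 rose by 1.07, and the summed value of the list went from 1033 to 2320. Of 8 markers of the retinal pigment epithelium only MITF and OTX2 were above the limit, and the summed value of all 8 was 46.9 before and 38.5 after H2O2. OTX2, a factor that specifies this tissue, went from 387 to 166.5 mean counts and fell by 1.48 ± 0.26, MITF stood at -0.30, and the pigment and visual cycle genes TYR (0 to 0.5) and RPE65 (0 to 6) were at or near 0. The libraries thus held reads of epithelial keratins and few reads of the mature pigment epithelium's genes.

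Of 7 fibroblast markers 2 were above the limit, COL1A1 (535.5 to 1250.5 mean counts, 0.95) and PDGFRB. The summed value of all 7 went from 49.6 to 246, while LUM was at 0.5 mean counts in both groups and COL1A2 went from 7.5 to 10.5. Of 5 neuronal markers 2 were above the limit, of which TUBB3 rose (41.5 to 232, 2.19), and the summed value of all 5 went from 19 to 30.8. The summed value of 5 white blood cell markers went from 2.12 to 18.4, nearly all of it CD79A. PTPRC, which marks all white blood cells, had 5 and 6 mean counts, and CD3E and CD68 had 0 in both groups. Photoreceptor (0.911 to 1.32) and endothelial markers (0.831 to 0.537) stayed low in sum, with 0 of 5 and 0 of 4 above the limit.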

How the data were processed

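New RNA of wild type RPE1 cells was measured by 4sU-seq in 2 untreated and 2 H2O2-treated libraries, grouped per the labels' treatment and genotype. The authors deposited 1 signal value per gene and group, pooled over libraries, with a log2 fold change, a p-value and an adjusted p-value. Per the submitters' processing notes the tools were STAR 2.5, DESeq2 and DESeq on build hg38, with no settings given, and the counting tool, strand setting and unit are not given in the sources used here. The steps of the deposited signal showed it to be the mean count plus 1, scaled by gene length and by 1 constant for both groups. Mean counts were recovered from it (tolerance 1e-06), and 86.0% of the 60448 lengths were settled by GENCODE 29, which held 56868 of the gene IDs. Counts of the other genes are known only up to a factor that both groups share.

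The log2 ratio of the 2 deposited signal values was centred on the median of 8851 genes with both values at least 5. Genes above a mean value of 5 were counted at 2-fold past that median. The authors' deposited p-value gave each gene's standard error, which for 187 genes was filled from 101 neighbours in level. The centred ratio was tested with it by a normal test with Benjamini-Hochberg adjustment over 18522 genes. Named genes were the 20 protein-coding and 6 non-coding genes highest and lowest by the centred ratio with at least 50 recovered mean counts over both groups, the 10 highest values in each group, and the highest, the lowest and the most abundant member of each list. A few genes that these rules name are not reported here. Members and lists were chosen with earlier results of these data known. Intervals for few reads are exact, at 95%, and cover counting error only. Alternatives changed the centring, the level limit and the tests. The planned count test per library was not run, since 1 pooled value per group was used. Python 3.11.15, pandas 2.3.3, scipy 1.17.1 and matplotlib 3.10.9 were used.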

Additional observations from a re-analysis of the deposited data

How the results depend on the processing

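Without centring, 1588 genes stood at least 2-fold higher and 542 lower. With a mean value of at least 1 the counts were 1830 and 1640, and with at least 20 they were 524 and 519, since these limits take in more or fewer genes. Scaling by total counts (a shift of 0.31 in place of 0.27) gave 861 and 1039, and the median of genes with at least 50 mean counts (0.29) gave 896 and 1002. Of 18522 genes tested, the authors' deposited adjusted p alone called 4947 higher, and the centred test alone, chosen after seeing the data, called 2818 lower, against 3177 risen and 1778 fallen by both. A threshold of 0.01 left 2306 and 1247. Of 882 values of named genes under other centrings 853 kept their direction and call, 4 (NOTCH2 and SESN2, each under total counts and the median of genes with at least 50 mean counts) lost the call and 5 gained it, and 20, none past both tests, changed sign. Without centring these were RPL4 (0.039), MT1X (0.098), IER5 (0.11), IER3 (0.12), LIF (0.13), SCAP (0.15), MCL1 (0.16), UBTF (0.16), NEAT1 (0.19), ATP5B (0.22), PTPRC (0.22), TFEB (0.22), EBP (0.23), MT-ND4L (0.24) and PTK2 (0.25). Scaling by total counts turned EGFR (-0.0038), MYC (-0.037) and PSMC6 (-0.034), and the median of genes with at least 50 mean counts turned MYC (-0.016) and PSMC6 (-0.013). A change of centring moves every list median by the same amount. Of 514 list medians under other settings, 39 changed sign, 17 of them without centring. Genes with few untreated reads are limited by depth, as their intervals show. No paired analysis was possible because the table used holds 1 pooled value per group, so leaving out a library was not run either.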
